A study of Mus musculus with 8 samples.

Results

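The collagen gene family was followed through RNA from mouse uterine stromal cells, the connective tissue cells of the uterus, under estradiol and under loss of the autophagy gene Atg7. Every gene symbol of the form Col, a number, the letter a and a number was taken, which gave 44 of the 23238 symbols counted in each library. The chains were sorted by the structure they build into 11 fibrillar chains, 6 type IV chains of basement membranes, 6 type VI chains of beaded microfibrils, 9 FACIT chains (fibril-associated collagens with interrupted triple helices) and 12 others. Of the 44 chains, 33 had enough reads to be tested, and 11 did not.

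All mice were ovariectomized and of a strain labelled C57BL/6-ICR. Control mice carried floxed Atg7 alleles (Atg7f/f), and the deleted mice (Atg7d/d) came from an Atg7f/f;Amhr2cre cross, in which Cre is driven by the Amhr2 promoter and acts in the uterine mesenchyme. Mice of each genotype received oil or estradiol (E2), giving 4 groups of 2 libraries: control oil, control E2, deleted oil and deleted E2. The labels list no group with Cre and intact Atg7, so an effect of Cre and an effect of the deletion cannot be told apart. The labels give neither the age of the mice, the dose and timing of estradiol nor how the stromal cells were separated. They do not say whether the 2 libraries of a group came from separate animals, so p-values here measure only the spread between these libraries, which may be technical.

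Collagens are secreted proteins in which 3 chains wind into a triple helix. Fibrillar collagens such as types I, III and V assemble into the load-bearing fibres of connective tissue, type IV forms the network of basement membranes under epithelia and around vessels and muscle, and type VI forms microfibrils close to the cell surface. FACIT collagens sit on the surface of fibrils, and the remaining types include transmembrane, anchoring and multiplexin forms. In the uterus, fibroblasts of the stroma are a main source of fibrillar and type VI collagen, and the collagen content of the tissue changes with ovarian hormones.

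The libraries held 5458390 to 6951080 reads on gene symbols, and 15527 to 15963 symbols had a read. The targeted gene, Atg7, was read 22 and 32 times in the control oil libraries and 21 and 33 times in the deleted oil libraries, and 20 and 23 times against 23 and 22 times under E2, so the genotypes overlapped. These reads come from 3′ ends of transcripts and check nothing about a deletion inside the gene. All 12 fibroblast markers other than collagens were detected, with a summed level of 2284 to 3483 CPM. CPM stands for reads per 1000000 reads, with each library's total over the tested genes adjusted by a TMM factor. RNA of other cell types was present and moved with treatment. Epithelial markers summed to 4911 to 18403 CPM in the 4 oil libraries and 1347 to 2943 in the 4 E2 libraries, and smooth muscle markers to 1643 to 4109 and 6269 to 7207 CPM. In these bulk samples, fewer cells of a type and less RNA per cell cannot be told apart.

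To show the DNA in front of these genes, the 250 bases upstream of the annotated start are printed for chains that carry the main changes described below and whose upstream window overlaps no annotated exon. Col3a1, Col5a1 and Col6a3 were higher after estradiol, and Col8a1 and Col23a1 were lower, with the fall called in 1 genotype for each. Sequences are from RefSeq on GRCm38.p6, 5′ to 3′ on the gene's strand, and capitals mark a match on either strand to 5 motifs, which were searched independently. They were the CCAAT box, the TATA box as TATAAA, the GC box as GGGCGG, the AP-1 site as TGANTCA, and the full palindromic estrogen response element, whose arms GGTCA then TGACC stand 3 bases apart. The first window is chr1:45311288-45311537 on the plus strand, the second chr2:27886175-27886424 on the plus strand, the third chr1:90843972-90844221 on the minus strand, the fourth chr16:57754738-57754987 on the minus strand and the fifth chr11:51289670-51289919 on the plus strand.
Col3a1: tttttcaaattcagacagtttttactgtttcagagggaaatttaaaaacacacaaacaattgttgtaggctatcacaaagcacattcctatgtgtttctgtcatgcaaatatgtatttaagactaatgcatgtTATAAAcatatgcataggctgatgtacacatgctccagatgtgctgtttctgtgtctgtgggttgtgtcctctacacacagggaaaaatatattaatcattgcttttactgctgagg
Col5a1: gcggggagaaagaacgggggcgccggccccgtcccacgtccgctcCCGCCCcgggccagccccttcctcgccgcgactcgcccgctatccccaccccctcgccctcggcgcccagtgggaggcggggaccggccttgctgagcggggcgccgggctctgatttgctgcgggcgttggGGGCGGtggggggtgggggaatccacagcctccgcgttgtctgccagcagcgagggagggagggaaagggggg
Col6a3: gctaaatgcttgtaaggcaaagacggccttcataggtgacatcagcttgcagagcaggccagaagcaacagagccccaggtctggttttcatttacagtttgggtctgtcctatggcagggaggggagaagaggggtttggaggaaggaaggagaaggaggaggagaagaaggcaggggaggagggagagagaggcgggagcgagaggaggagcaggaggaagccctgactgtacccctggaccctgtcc
Col8a1: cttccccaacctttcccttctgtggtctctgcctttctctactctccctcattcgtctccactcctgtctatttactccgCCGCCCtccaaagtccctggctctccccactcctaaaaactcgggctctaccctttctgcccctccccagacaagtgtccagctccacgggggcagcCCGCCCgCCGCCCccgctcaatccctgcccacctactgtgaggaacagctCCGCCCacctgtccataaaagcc
Col23a1: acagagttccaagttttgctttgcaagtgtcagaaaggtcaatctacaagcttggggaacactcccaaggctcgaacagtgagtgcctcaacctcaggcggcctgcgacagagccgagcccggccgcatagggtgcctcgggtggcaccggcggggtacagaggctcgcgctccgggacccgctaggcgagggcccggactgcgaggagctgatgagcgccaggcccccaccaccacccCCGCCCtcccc
The Col3a1 window held a TATAAA match beginning 117 bases before the start, and the Col6a3 window held none of the 5 motifs. GC boxes numbered 2 before Col5a1, 4 before Col8a1 and 1 before Col23a1. RefSeq windows were at hand for 35 of the 44 chains, as 38 windows. A GC box stood in 22 of them (57.9%), against 32.7% of the 32851 mouse windows of this length. The CCAAT box stood in 13 (34.2%, against 33.8%), the TATA box in 5 (13.2%, against 12.4%), the AP-1 site in 1 (2.63%, against 6.75%) and the estrogen response element in 0 (against 0.0639%). A match describes the letters of the window and no binding was measured.

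Collagen transcripts made up a larger part of the stromal RNA after estradiol in both genotypes, and most of the gain lay in the fibrillar and type VI chains. The summed level of all 44 chains was 1438 ± 281 CPM in control oil and 11905 ± 3079 in control E2 (mean ± SD, n = 2), and 1713 ± 407 and 13034 ± 1428 in the deleted oil and E2 groups. Fibrillar chains summed to 324 ± 102 CPM in control oil and 5381 ± 1644 in control E2, a ratio of means of 16.6, and to 438 ± 172 and 6401 ± 437 in the deleted stroma, a ratio of 14.6. Type VI chains summed to 417 ± 74.2 and 4702 ± 1369 CPM in the control (11.3-fold), and to 499.8 ± 85.3 and 4805 ± 942 in the deleted stroma (9.61-fold). These sums were carried by a few abundant chains.

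The other classes stood apart by less. Type IV chains summed to 382 ± 127 CPM in control oil and 1163 ± 87.3 in control E2 (3.05-fold), and to 417 ± 78.8 and 1032 ± 56.2 in the deleted stroma (2.48-fold). The ratio of E2 to oil was 1.97 in control and 2.25 in deleted stroma for FACIT chains, and 2.17 and 2.21 for the remaining chains. The make-up of the collagen reads differed accordingly between oil and E2. Fibrillar chains took 22.3% ± 2.71 of collagen reads in control oil and 44.9% ± 2.20 in control E2, and type IV chains 26.2% ± 3.69 and 10.01% ± 1.86. In deleted stroma the fibrillar share was 25.1% ± 4.06 in oil and 49.2% ± 2.04 in E2, and the type IV share 24.5% ± 1.22 and 7.94% ± 0.44.

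**Figure D1:**
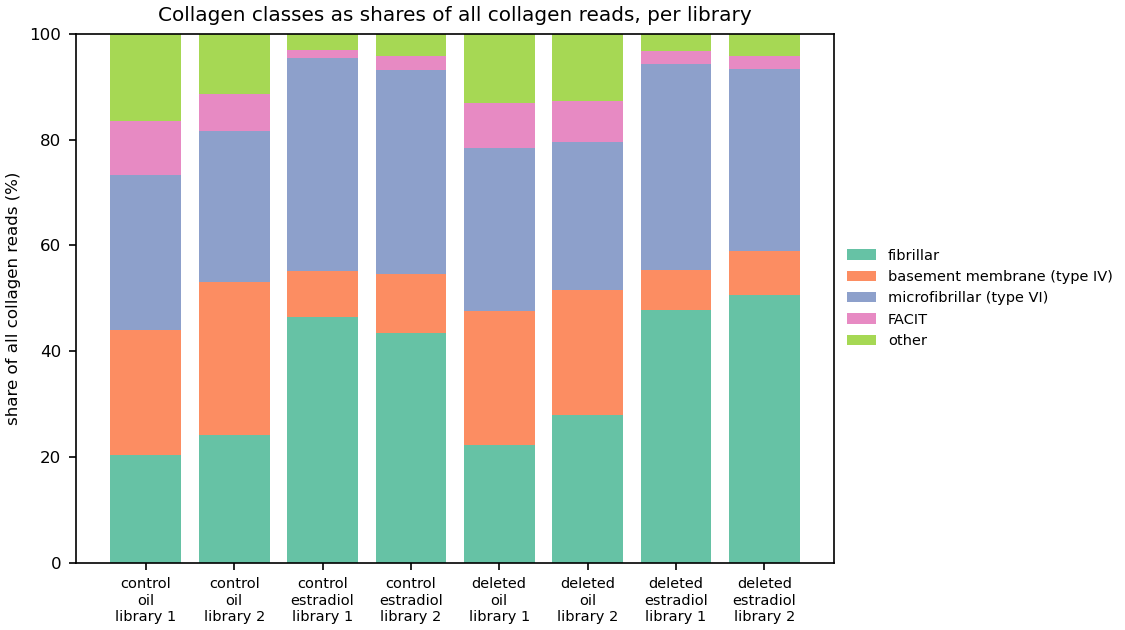
Percent of each library's collagen reads that fell in each of the 5 classes, 1 stacked bar per library, from 0 to 100%. In the 4 E2 libraries the fibrillar share lies between 43.4% and 50.7%, and in the 4 oil libraries between 20.4% and 27.9%.

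Tested chain by chain with edgeR over all 13347 genes that passed the filter on low counts (a change is called at a Benjamini-Hochberg adjusted p below 0.05), 17 of the 33 collagen chains rose and 2 fell with estradiol in control stroma. Of all genes tested, 29.8% were called in this comparison, 15.8% up and 14.0% down. In the deleted stroma 20 chains rose and 1 fell, where 24.3% of all genes were called, 13.1% up and 11.2% down. The median log2 fold change of the 33 chains was 1.59 in control and 1.71 in deleted stroma, beside 0.01 and 0.02 over all genes tested. In control both E2 libraries lay above both oil libraries for 24 chains and below for 4, beside 33.8% and 31.7% of all genes. In deleted stroma these were 25 and 4 chains, beside 35.5% and 32.7%. For a single chain within a genotype this order is thus common. Of the chains that rose, 16 did so in both genotypes, out of 17 in control and 20 in deleted stroma, and no chain fell in both. The 2 comparisons use separate libraries, but 1 model with a common filter, scaling and estimate of spread served both, so they are not independent. The share of all genes called up in both genotypes is not given here.

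By class, 7 of 9 tested fibrillar chains rose in each genotype. This count and the total above include Col24a1 in control and Col11a1 in deleted stroma. Both chains reached the filter only through their E2 libraries, so their rises add no separate support. The filter left out Col9a2, a FACIT chain with 32 reads in oil and 2 in E2. Of the 6 type IV chains 2 rose in control and 4 in deleted stroma, and of the 6 type VI chains 4 and 5. Of the 5 tested FACIT chains 1 rose in each genotype and 1 fell in control, and of the 7 other chains 3 rose and 1 fell in each. Counts of 1 in 5 or 7 are near the shares of all genes. These were 15.8% up and 14.0% down in control, and 13.1% and 11.2% in deleted stroma. The class medians of the log2 fold change were 2.39 and 2.22 for fibrillar, 1.26 and 1.35 for type IV, 3.27 and 2.86 for type VI, -0.08 and -0.21 for FACIT and 0.27 and 0.85 for other chains, in control and deleted stroma.

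**Figure D2:**
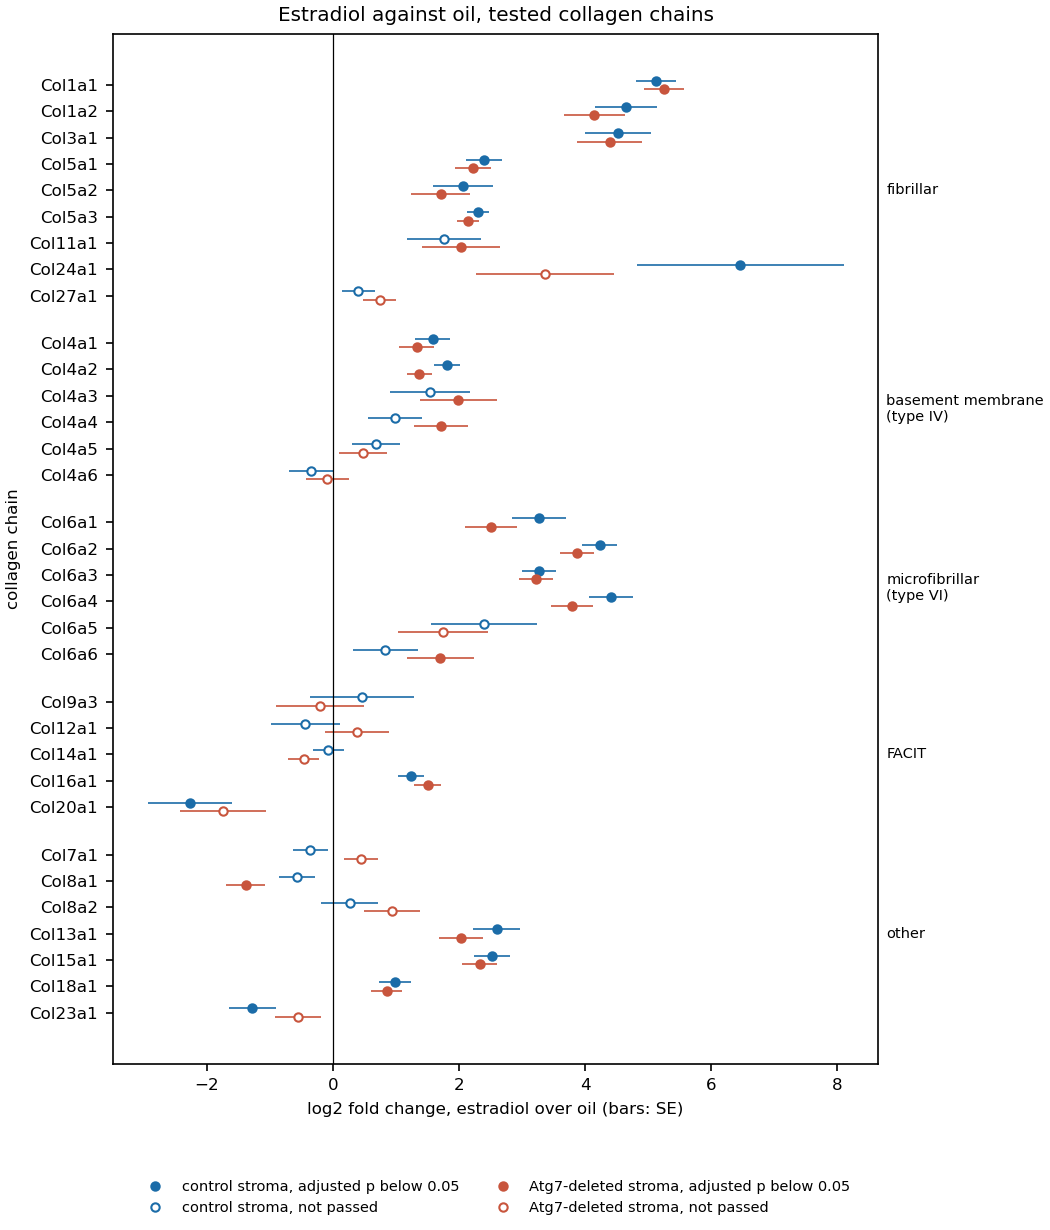
Log2 fold change of E2 against oil for each of the 33 tested chains, grouped by class, in control and deleted stroma, with bars of 1 standard error. Col1a1 lies at 5.13 in control and 5.25 in deleted stroma, and Col8a1 and Col23a1 lie below 0. The fitted control value of Col24a1, which had 0 reads in control oil, depends on the prior count and is not a measured fold.

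The fibrillar class held the chains with the largest fold changes. Col1a1, which with Col1a2 encodes type I collagen, lies at chr11:94936224-94953042 on the plus strand of mm10. It measured 39.6 and 48.7 CPM in control oil and 1888 and 1196 in control E2, and 42.7 and 61.3 CPM in deleted oil, then 1929 and 2036 in deleted E2. All 4 E2 libraries stood far above all 4 oil libraries. The fold change was 34.9 in control (log2 5.13 ± 0.31 SE, edgeR adjusted p = 0.000157) and 38.1 in deleted stroma (5.25 ± 0.32, adjusted p = 0.000163).

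Col1a2 (chr6:4504814-4541544, plus strand) was the fibrillar chain with the highest mean level. Its values were 55.1 and 122 CPM in control oil, 2745 and 1685 in control E2, 90.6 and 187 in deleted oil, then 2615 and 2299 in deleted E2. Within each genotype oil library 2 was the higher of its pair. The fold change was 25.1 in control (log2 4.65 ± 0.50, adjusted p = 0.000796) and 17.7 in deleted stroma (4.14 ± 0.48, adjusted p = 0.00141). Col3a1, the chain of type III collagen, which co-assembles with type I in soft tissue, lies at chr1:45311538-45349706 on the plus strand. It had 25.9 and 62.5 CPM in control oil, 1216 and 812 in control E2, 35.6 and 83.0 in deleted oil, then 1390 and 1099 in deleted E2. Its fold change was 23.0 in control (log2 4.52 ± 0.53, adjusted p = 0.000976), and its log2 fold change was 4.39 ± 0.52 in deleted stroma (adjusted p = 0.0015). The E2 and oil libraries did not overlap for either chain.

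The type V chains, which join type I fibrils and take part in setting their diameter, also rose but from a narrower range. Col5a1 measured 56.2 and 74.0 CPM in control oil, 409 and 274 in control E2, 68.4 and 106 in deleted oil, then 440 and 375 in deleted E2 (log2 2.39 ± 0.29, adjusted p = 0.00110, and 2.22 ± 0.28, adjusted p = 0.00186). Col5a3 changed by 2.30 ± 0.17 and 2.14 ± 0.17 on the log2 scale (adjusted p = 0.000252 and 0.000501). Col5a2, which lies tail to tail with Col3a1 24614 bases away, changed by 2.06 ± 0.48 (adjusted p = 0.0133) and 1.71 ± 0.47 (adjusted p = 0.0290). All 3 type V chains were thus called in both genotypes. Without control E2 library 1 the Col5a2 call was lost in control (adjusted p = 0.0698). In deleted stroma it was lost without E2 library 1 (0.151), E2 library 2 (0.0868) or oil library 1 (0.123). Without oil library 2 of its genotype, the log2 fold change of Col1a2 was 5.30 in control and 4.76 in deleted stroma, that of Col3a1 5.26 and 5.13, and that of Col5a2 2.77 and 2.60.

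Chains of low level made up the rest of the class. Col24a1 had 0 and 0 reads in control oil and 16 and 8 in control E2, at least 7.02-fold higher against a floor of 3 reads over the group (adjusted p = 0.0216). In deleted stroma its reads were 2 and 0 in oil and 14 and 7 in E2 (adjusted p = 0.0583). The control call was lost without control E2 library 1 (0.106), control E2 library 2 (0.0531) or control oil library 1 (0.0616). Col11a1, a minor fibrillar chain best known from cartilage, changed by 1.76 ± 0.59 in control (adjusted p = 0.0504) and rose by 2.03 ± 0.62 in deleted stroma (adjusted p = 0.0426), with levels under 3 CPM in every library. Col27a1 changed by 0.40 (adjusted p = 0.269) and 0.74 (adjusted p = 0.0671) and passed in neither genotype. Fibrillar chains under the filter were Col2a1, the main cartilage collagen, with 7 reads over the 4 oil and 2 over the 4 E2 libraries, and Col11a2 with 6 and 5.

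**Figure D3:**
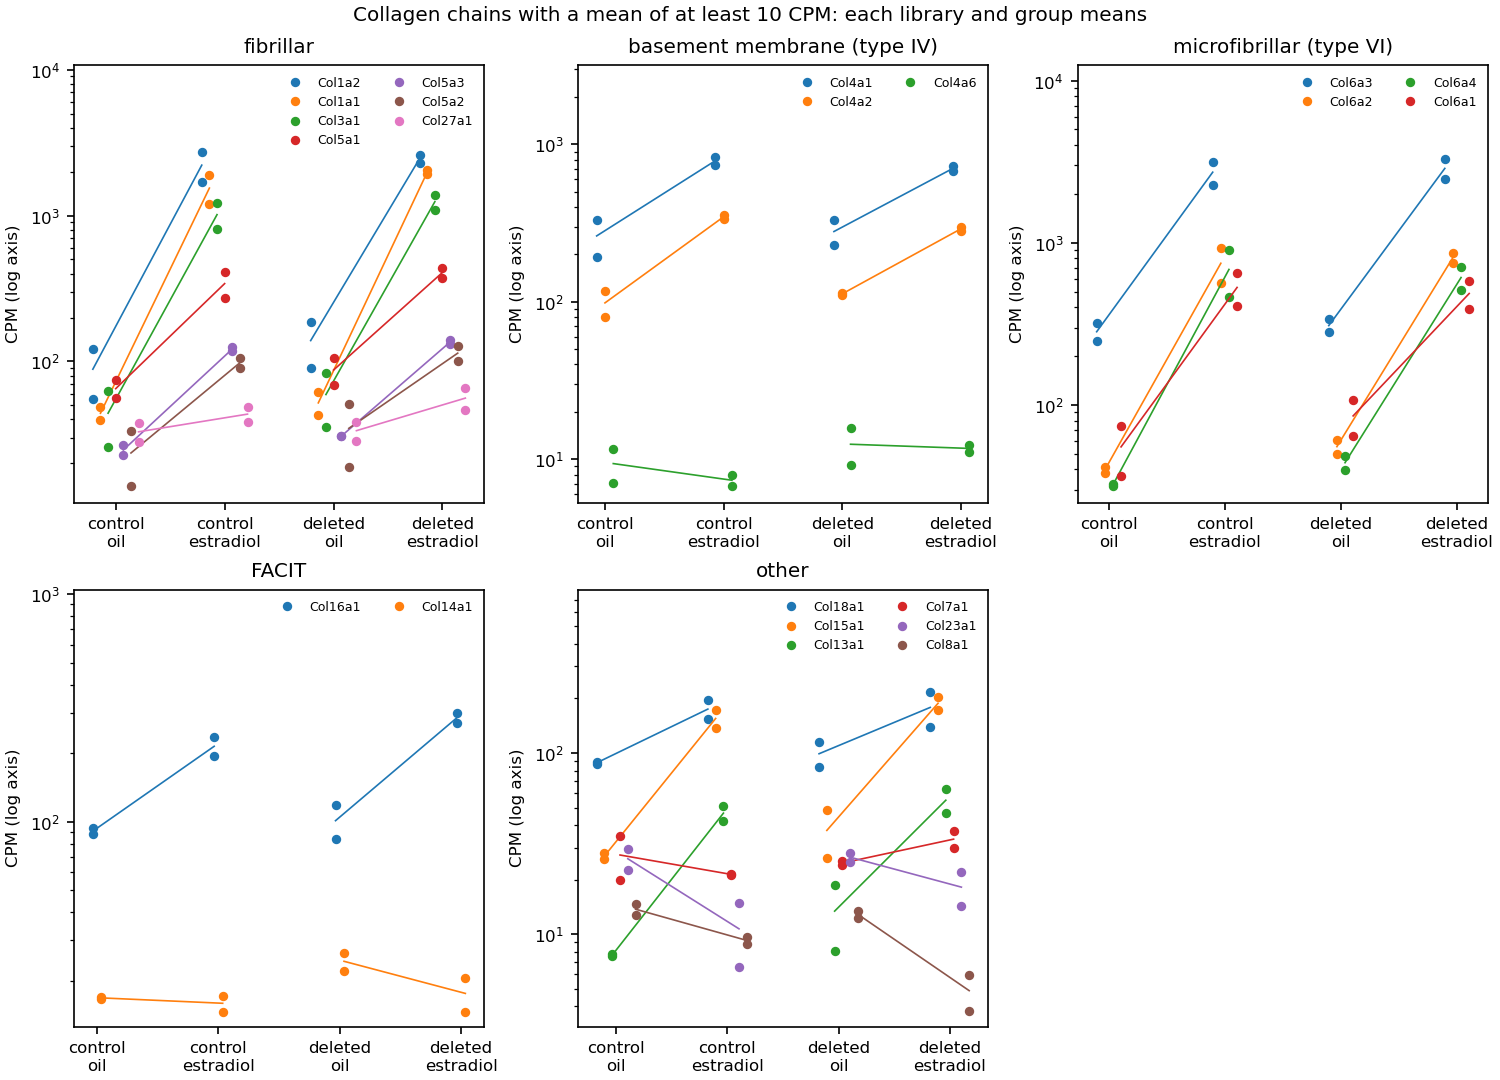
Level in CPM of the chains with a mean of at least 10 CPM on a log axis, 1 point per library, with lines joining the group means of oil and E2 within each genotype. For Col1a1 and Col1a2 the lowest E2 library (1196 and 1685 CPM) stands above the highest oil library (61.3 and 187 CPM).

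Type IV chains are encoded in 3 head-to-head gene pairs, and the pairs differed in level. Col4a1 and Col4a2, whose products form the common basement membrane network, start within 22 overlapping bases of each other (chr8:11198423-11312826 on the minus strand and chr8:11312805-11449287 on the plus strand). Col4a1 had 193 and 331 CPM in control oil, 833 and 741 in control E2, 230 and 329 in deleted oil, then 729 and 673 in deleted E2. Col4a2 had 79.7 and 117 CPM in control oil, 358 and 335 in control E2, 111 and 114 in deleted oil, then 298 and 283 in deleted E2. The E2 libraries stood above the oil libraries for both chains. In control stroma Col4a1 rose by 1.59 ± 0.28 on the log2 scale (adjusted p = 0.00430) and Col4a2 by 1.82 ± 0.21, or 3.52-fold (adjusted p = 0.000917). In deleted stroma the folds were 2.51 (1.33 ± 0.28, adjusted p = 0.0104) and 2.59 (1.37 ± 0.20, adjusted p = 0.00300). The Col4a1 call in deleted stroma was lost without E2 library 1 (adjusted p = 0.0760), E2 library 2 (0.0539) or oil library 1 (0.0721). The read ratio of Col4a1 to Col4a2 ran from 2.07 to 2.89 over the 8 libraries. An antisense gene, Gm15418, overlaps the last 1000 bases of Col4a1, and since the use of strand in the counting is not given in the sources used here, reads of the pair cannot be told apart.

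Col4a3 and Col4a4 encode chains of the specialised network best known from kidney glomeruli, and their start sites lie 71 bases apart on chromosome 1. The interval between them is chr1:82586850-82586920, printed 5′ to 3′ on the minus strand, the strand of Col4a4, with no match to the 5 motifs and 69.0% G or C.
Col4a4 to Col4a3 interval: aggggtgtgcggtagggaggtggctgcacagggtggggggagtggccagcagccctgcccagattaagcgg
Both chains were rare. Col4a3 measured 1.89 and 0.885 CPM in control oil, 5.73 and 2.46 in control E2, 1.58 and 1.58 in deleted oil, then 8.64 and 4.04 in deleted E2. Col4a4 measured 5.52 and 2.66 CPM in control oil, 10.3 and 5.99 in control E2, 4.11 and 3.31 in deleted oil, then 13.7 and 10.7 in deleted E2. Both were called in deleted stroma alone, Col4a3 at log2 1.99 ± 0.61 (adjusted p = 0.0434) and Col4a4 at 1.71 ± 0.43 (adjusted p = 0.0212). Their control values were 1.54 ± 0.63 (adjusted p = 0.0956) and 0.99 ± 0.43 (adjusted p = 0.112), and the test of the difference between genotypes, given below, passed for neither. Another gene, C430014B12Rik, overlaps the last 1000 bases of Col4a3 on the opposite strand, so reads of the 2 genes may be mixed. Leaving out any of the 4 deleted libraries ended both calls, with adjusted p from 0.0619 to 0.275 for Col4a3 and from 0.0686 to 0.131 for Col4a4. Col4a5 and Col4a6, the X-linked pair, passed in neither genotype, with 0.68 and 0.48 for Col4a5 and -0.34 and -0.09 for Col4a6.

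Type VI was the class with the highest median fold change, and Col6a3 was the collagen chain with the most reads in 7 of the 8 libraries. In control oil library 2 that place went to Col4a1. Col6a3 (chr1:90765923-90843971, minus strand), the large chain that joins Col6a1 and Col6a2 in the standard type VI trimer, had 246 and 319 CPM in control oil, 3171 and 2278 in control E2, 280.2 and 337 in deleted oil, then 3287 and 2465 in deleted E2. It rose 9.64-fold in control (log2 3.27 ± 0.27, adjusted p = 0.000290) and 9.32-fold in deleted stroma (3.22 ± 0.27, adjusted p = 0.000558). Col6a2, its partner on chromosome 10, had 38.2 and 41.2 CPM in control oil, 927 and 569 in control E2, 49.8 and 60.8 in deleted oil, then 870.3 and 752 in deleted E2. It rose 18.8-fold (log2 4.23 ± 0.28, adjusted p = 0.000157) and 14.7-fold (3.87 ± 0.27, adjusted p = 0.000241). Col6a1, 85161 bases from Col6a2 on the same strand, rose 9.63-fold (3.27 ± 0.42, adjusted p = 0.00139) and 5.68-fold (2.51 ± 0.41, adjusted p = 0.00408). All 3 chains of the standard trimer were therefore called in both genotypes.

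Read ratios among the standard chains lay apart between the treatments, which was not tested. There were 5.54 to 7.74 reads of Col6a3 per read of Col6a2 in the 4 oil libraries and 3.28 to 4.01 in the 4 E2 libraries. The ratio of Col6a1 to Col6a2 ran from 0.959 to 1.79 in oil and from 0.518 to 0.716 in E2. In both ratios the treatments did not overlap. For type I the ratio of Col1a1 to Col1a2 was 0.327 to 0.719 in oil and 0.688 to 0.886 in E2, with overlap.

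Col6a4, Col6a5 and Col6a6 encode chains that can stand in for Col6a3, and they lie in a row on chromosome 9. Col6a4 had 31.6 and 32.8 CPM in control oil, 904 and 465 in control E2, 39.5 and 48.5 in deleted oil, then 710 and 511 in deleted E2. It rose 21.3-fold in control (log2 4.41 ± 0.35, adjusted p = 0.000254) and 13.9-fold in deleted stroma (3.79 ± 0.34, adjusted p = 0.000677). Its neighbours were far less abundant. Col6a6 changed by 0.83 in control (adjusted p = 0.254) and rose by 1.71 ± 0.53 in deleted stroma (adjusted p = 0.0458). Col6a5 stayed at or under 6.31 CPM and passed in neither genotype (adjusted p = 0.0586 and 0.104). Of the chains that rose in deleted stroma, Col11a1, Col6a6 and Col18a1 each lost the call in 6 of the 8 fits that left out 1 library.

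Of the 5 tested FACIT chains Col16a1 rose and the other 4 did not. Col16a1 (chr4:130047840-130099283, plus strand), a chain found in fibrils and near basement membranes, had 93.6 and 88.0 CPM in control oil, 193 and 235 in control E2, 83.6 and 118 in deleted oil, then 300.1 and 272 in deleted E2. Every E2 library stood above every oil library. It rose 2.36-fold in control (log2 1.24 ± 0.21, adjusted p = 0.00367) and 2.83-fold in deleted stroma (adjusted p = 0.00243). Col14a1, which binds type I fibrils and was next in level, measured 16.6 and 17.0 CPM in control oil, 17.2 and 14.6 in control E2, 26.6 and 22.1 in deleted oil, then 14.6 and 20.5 in deleted E2. It passed in neither genotype (log2 -0.08 ± 0.25, adjusted p = 0.836, and -0.47 ± 0.24, adjusted p = 0.188).

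Col20a1, a little studied FACIT chain, fell in control stroma. It had 10.6 and 3.01 CPM in control oil, 0.978 and 1.84 in control E2, 5.69 and 4.73 in deleted oil, then 2.16 and 0.971 in deleted E2. The E2 libraries lay below the oil libraries. The fold was 4.83 lower in control (log2 -2.27 ± 0.67, adjusted p = 0.0325), with -1.74 ± 0.68 in deleted stroma (adjusted p = 0.0924). Leaving out control oil library 1 moved the control value to -1.07 (adjusted p = 0.276), and the call was also lost without control E2 library 1 (-1.87, 0.186) or library 2 (-2.78, 0.0834). Without control oil library 2 the value was -2.94 (adjusted p = 0.00414). Col12a1, which like Col14a1 binds fibrils, stayed between 1.84 and 5.82 CPM and passed in neither genotype, as did Col9a3. Under the filter were Col9a1 with 1 and 0 reads over the 4 oil and 4 E2 libraries, Col9a2 with 32 and 2, Col19a1 with 30 and 10 and Col22a1 with 1 and 12.

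Of the remaining chains, Col13a1, Col15a1 and Col18a1 rose in both genotypes. Col15a1 and Col18a1 are the multiplexins, basement membrane collagens that carry sugar chains, and a fragment of Col18a1 is endostatin. Col18a1 had the highest mean level of this class, with 89.3 and 87.1 CPM in control oil, 154 and 195 in control E2, 83.3 and 115 in deleted oil, then 140 and 217 in deleted E2. It rose 1.98-fold (log2 0.98 ± 0.25, adjusted p = 0.0197) and 1.80-fold (0.85 ± 0.25, adjusted p = 0.0387), and the control call was lost without control E2 library 1 (1.15, adjusted p = 0.0504) or library 2 (0.81, adjusted p = 0.114). The gene Slc19a1 overlaps its last 1000 bases, so the reads of these genes may be mixed. Col15a1 had 25.9 and 28.1 CPM in control oil, 172 and 138 in control E2, 26.4 and 48.4 in deleted oil, then 202 and 173 in deleted E2. It rose 5.74-fold (2.52 ± 0.28, adjusted p = 0.000898) and 5.02-fold (2.33 ± 0.28, adjusted p = 0.00156).

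Col13a1, a transmembrane collagen, had 7.73 and 7.61 CPM in control oil, 50.8 and 42.3 in control E2, 8.06 and 18.7 in deleted oil, then 63.0 and 46.7 in deleted E2. It rose 6.06-fold in control (log2 2.60 ± 0.37, adjusted p = 0.00196) and by 2.03 ± 0.35 on the log2 scale in deleted stroma (adjusted p = 0.00512). Without deleted oil library 2, the deleted value was 2.77, and without deleted E2 library 1 it was 1.81 and lost the call (adjusted p = 0.0524).

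For Col8a1 and Col23a1 the E2 libraries lay below the oil libraries in both genotypes. Within a genotype that order held for 31.7% of all genes in control and 32.7% in deleted stroma. The fall passed the test in 1 genotype for each chain, while the difference between genotypes passed for neither. Col8a1, a short network-forming chain of vessel walls and the corneal membrane, had 12.8 and 14.7 CPM in control oil, 8.80 and 9.68 in control E2, 13.4 and 12.3 in deleted oil, then 3.78 and 5.98 in deleted E2. It fell 2.62-fold in deleted stroma (log2 -1.39 ± 0.30, adjusted p = 0.0125) and did not pass in control (-0.57 ± 0.29, adjusted p = 0.159). The call was lost without deleted E2 library 1 (-1.10, adjusted p = 0.108) or deleted oil library 1 (-1.32, 0.0628). Col23a1, a transmembrane collagen, had 29.5 and 22.7 CPM in control oil, 14.8 and 6.61 in control E2, 25.1 and 28.0 in deleted oil, then 22.1 and 14.2 in deleted E2. It fell 2.43-fold in control (-1.28 ± 0.37, adjusted p = 0.0312), with -0.55 ± 0.36 in deleted stroma (adjusted p = 0.295). This call was lost without control E2 library 2 (-0.81, adjusted p = 0.150) or control oil library 1 (-1.04, 0.105), and the value was -1.97 without control E2 library 1 (0.0208).

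Col7a1, the anchoring fibril collagen of epithelial junctions, passed in neither genotype (-0.36, adjusted p = 0.346, and 0.44, adjusted p = 0.262), as did Col8a2. In this class Col10a1 of growth plate cartilage had 0 reads in all 8 libraries. Col17a1, of the epithelial hemidesmosome, had 13 reads over the oil and 13 over the E2 libraries, Col25a1 had 33 and 19, Col26a1 5 and 12, and Col28a1 0 and 3. All 5 fell under the filter. The filter asked for enough reads in at least 2 libraries and not for a large total alone. Col25a1, with 52 reads spread over all libraries, was therefore not tested, while Col24a1, with 47 that lay mostly in E2 libraries, was.

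The leading chains of the classes were compared within a library by read ratios, which do not depend on library scaling. The fold changes of these chains were already known, so the p-values add no separate support. They describe the chosen chains and not whole classes. Fibrillar Col27a1 changed by log2 0.40 in control and 0.74 in deleted stroma, less than type IV Col4a2 (1.82 and 1.37). For each class the chain of highest mean level was taken. The log2 ratio of each of the 10 pairs was compared between the 4 E2 and the 4 oil libraries, genotypes together. A two-sided exact permutation test (smallest possible p = 0.0286) was used, which was added after the data had been seen. It treats the 4 libraries of a treatment as independent. Libraries of the same number deviated together between genotypes (r over genes 0.494 in oil and 0.230 in E2), so the SEs and p-values may be too small. The ratio of Col1a2 to Col4a1 was higher by 2.98 ± 0.26 (SE) in E2, a 7.90-fold change in the balance of a fibrillar to a basement membrane chain, with no overlap between treatments (exact p = 0.0286, adjusted 0.0357 over the 10 pairs). The ratio of Col6a3 to Col4a1 was higher by 1.74 ± 0.15 and that of Col1a2 to Col6a3 by 1.24 ± 0.28 (exact p = 0.0286 and adjusted p = 0.0357 for each). Fibrillar Col1a2 thus gained on microfibrillar Col6a3, and both gained on Col4a1. Against Col16a1 and Col18a1, Col1a2 gained 3.10 ± 0.38 and 3.57 ± 0.41, and Col6a3 1.86 ± 0.22 and 2.33 ± 0.29, all at the same smallest exact p. Col16a1 to Col18a1 was higher by 0.47 ± 0.20 in E2 (exact p = 0.0286). The ratio of Col4a1 to Col16a1 differed by 0.11 ± 0.26 (exact permutation p = 0.6) and that of Col4a1 to Col18a1 by 0.59 ± 0.25 (exact permutation p = 0.0857, adjusted 0.0952), with overlap in both.

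**Figure D4:**
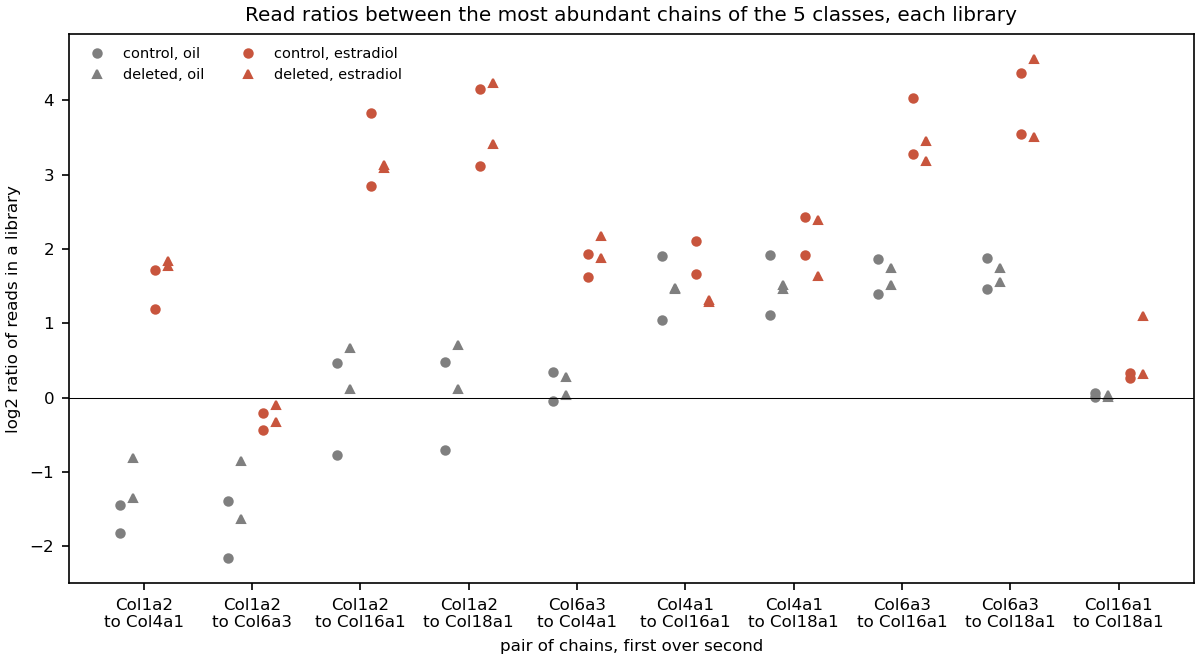
Log2 ratio of reads between the leading chains of pairs of classes, 1 point per library, E2 and oil side by side with both genotypes marked. The E2 points of Col1a2 to Col4a1 lie at 1.19 or above and the oil points at -0.81 or below.

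Deletion of Atg7 was compared within each treatment, and no collagen chain passed. In oil, 0 of 33 chains were called by edgeR and 0 had an unadjusted p below 0.05, and over all 13347 genes 0% were called and 339 had an unadjusted p below 0.05. In E2, 0 chains were called and 2 had an unadjusted p below 0.05, with 0% of all genes called and 403 at an unadjusted p below 0.05. DESeq2 also called 0 genes in both comparisons. The median log2 difference of deleted from control over the 33 chains was 0.23 in oil and 0.24 in E2, beside -0.01 in each treatment over all genes, and 26 of the 33 chains lay above 0 in each treatment, beside 6479 (oil) and 6387 (E2) of all 13347 genes. Signs of the cell type markers were counted in the deletion comparisons too. The summed epithelial levels of the 2 genotypes overlapped in oil and in E2. All 12 epithelial markers lay below 0 in oil (median -0.59) and in E2 (median -0.41). In oil 10 of 10 smooth muscle and 11 of 12 fibroblast markers lay above 0, and in E2 5 of 10 and 7 of 12 did. Of 10 macrophage markers 9 lay above 0 in oil and 8 in E2, and of 10 endothelial markers 4 and 0. The 1 tested mesothelial marker lay above 0 in both. None of these markers was called, and their part in the collagen values was not tested. The median in oil was -0.02 without deleted oil library 2 and 0.44 without control oil library 2, and the median in E2 ran from 0.07 without deleted E2 library 1 to 0.39 without control E2 library 1. Chains whose 2 deleted libraries both exceeded both controls numbered 7 in oil, with 0 in the opposite order, where 12.9% and 11.6% of all genes were so ordered. In E2 they numbered 11, with 3 in the opposite order, where the shares of all genes were 16.0% and 18.2%.

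The chains nearest to a difference in oil were Col14a1, Col13a1 and Col6a2. Col14a1 was higher by 0.53 ± 0.24 on the log2 scale in deleted oil (95% interval -0.02 to 1.09, edgeR unadjusted p = 0.0560), and its 2 deleted libraries (26.6 and 22.1 CPM) exceeded both controls (16.6 and 17.0). Col13a1 differed by 0.80 ± 0.38 (interval -0.05 to 1.65, unadjusted p = 0.0611), and by 0.07 without deleted oil library 2. Col6a2 differed by 0.48 ± 0.25 (unadjusted p = 0.0897). In E2, Col8a1 differed by -0.91 ± 0.30 (interval -1.60 to -0.22, unadjusted p = 0.0151), Col7a1 by 0.65 ± 0.27 (0.03 to 1.26, unadjusted p = 0.0407) and Col16a1 by 0.42 ± 0.20 (-0.04 to 0.88, unadjusted p = 0.0714). The adjusted p of each of these 6 values was 1.

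For the abundant chains the intervals show what these libraries could have missed. The log2 difference of deleted from control for Col1a1 was 0.24 in oil (-0.38 to 0.85) and 0.36 in E2 (-0.23 to 0.95). For Col1a2 it was 0.65 (-0.33 to 1.64) and 0.15 (-0.81 to 1.11), for Col6a3 0.13 (-0.44 to 0.69) and 0.08 (-0.48 to 0.64), and for Col4a1 0.09 (-0.52 to 0.71) and -0.17 (-0.78 to 0.44). Each interval includes 0 and reaches at least 0.44 above it.

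The response to estradiol was then compared between genotypes. No chain passed, 0 of 33 had an unadjusted p below 0.05, and over all genes edgeR called 0%, with 210 at an unadjusted p below 0.05, and DESeq2 called 0. The difference of the response (deleted minus control) had a median of -0.15 over the 33 chains, with 13 above 0 and 20 below, beside -0.01 over all genes, and of 0.30 without deleted oil library 2. The smallest p belonged to Col7a1 (0.80 ± 0.38, interval -0.07 to 1.66, unadjusted p = 0.0672), Col8a1 (-0.82 ± 0.41, -1.75 to 0.12, unadjusted p = 0.0799) and Col4a2 (-0.45 ± 0.28, unadjusted p = 0.150). Chains called in 1 genotype alone were thus not shown to respond differently in the other. For Col1a1 the difference was 0.13 (-0.73 to 0.98), for Col1a2 -0.50 (-1.88 to 0.87) and for Col6a3 -0.05 (-0.84 to 0.75).

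**Figure D5:**
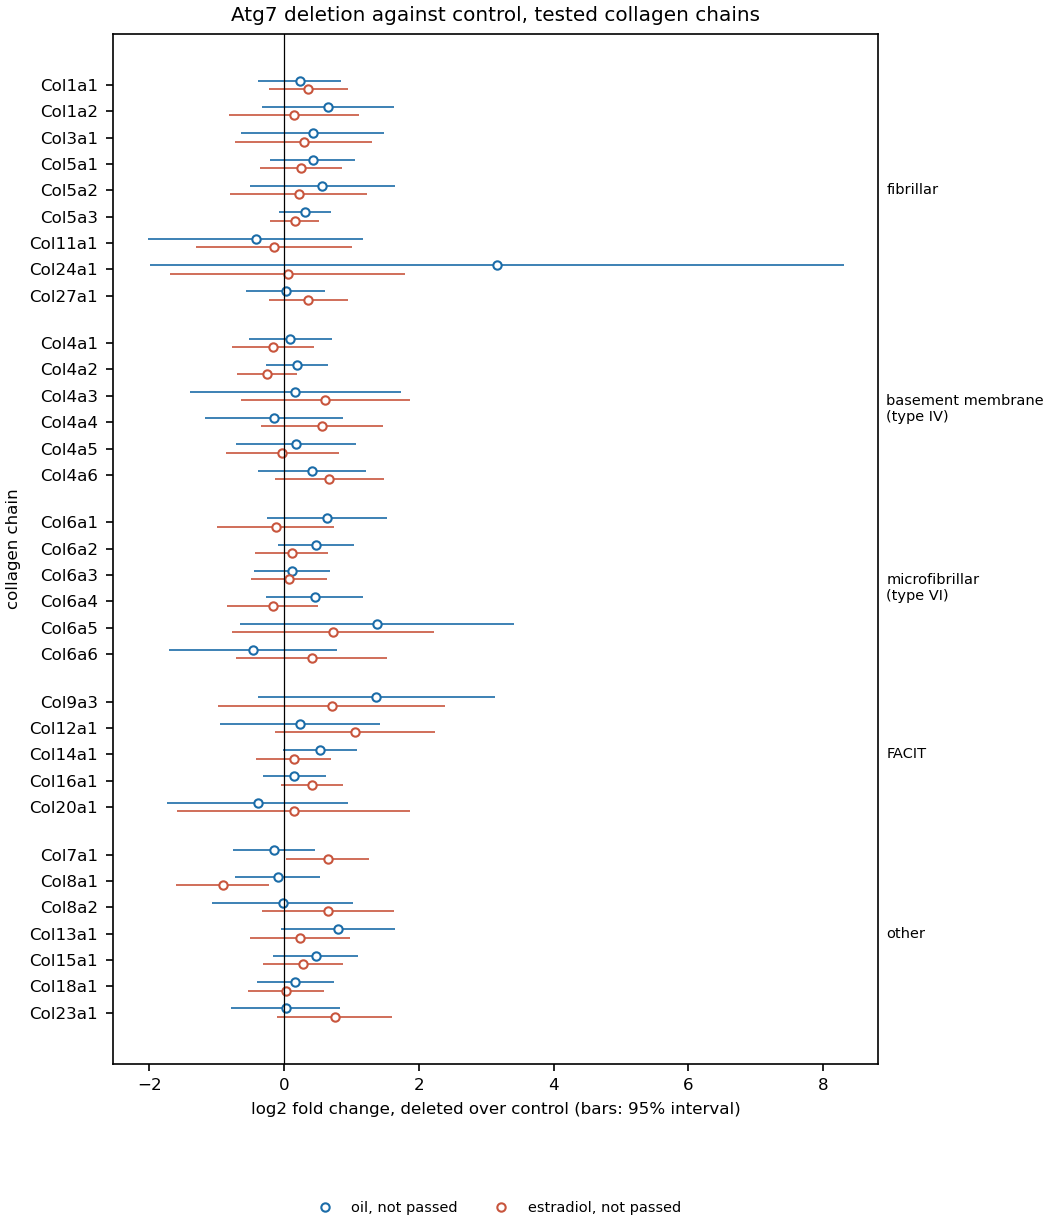
Log2 difference of deleted from control stroma for each of the 33 tested chains in oil and in E2, with 95% intervals. In each treatment 26 of the 33 estimates lie above 0, beside 6479 (oil) and 6387 (E2) of all 13347 genes, and none passed the adjusted test. The oil value of Col24a1 rests on 0 reads in control and 2 in deleted stroma.

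Genes that make and handle collagen were counted from lists of named pathway members, to be read beside the 15.8% of all genes called up and 14.0% called down in control and the 13.1% and 11.2% in deleted stroma. Of 23 tested genes for folding, modifying and secreting collagen, 17 rose and 0 fell with estradiol in control stroma, and 16 rose and 0 fell in deleted stroma, with median log2 fold changes of 1.24 and 1.23. Serpinh1, the collagen-specific chaperone HSP47, averaged 518 ± 16.0 CPM in control oil and 3339 ± 196 in control E2 (log2 2.69 ± 0.22, adjusted p = 0.000254), and changed by 2.43 in deleted stroma. Fkbp10, a prolyl isomerase that helps collagen fold, changed by 2.65 ± 0.21 and 2.28. P3h1, which hydroxylates proline in collagen, changed by 1.86 and 1.71. Each of these 3 was called in both genotypes.

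Of 12 tested genes for trimming and cross-linking, 7 rose in control and 5 in deleted stroma and 0 fell in either. Loxl1, a lysyl oxidase that cross-links elastin and collagen, rose by 2.40 ± 0.26 in control (adjusted p = 0.000796), and Loxl2 by 1.77 ± 0.27. Pcolce, an enhancer of the protease that removes the C-terminal propeptide, rose by 2.81 ± 0.43. Among 8 tested collagen receptors 2 rose and 2 fell in control and 1 rose in deleted stroma. In deleted stroma 1 of 8 is near the 13.1% of all genes. Mrc2, an endocytic collagen receptor, rose in both (2.49 ± 0.53, adjusted p = 0.00914, and 1.56, adjusted p = 0.0498), and Itga11, the α subunit of a fibrillar collagen integrin, fell in control (-1.89 ± 0.54, adjusted p = 0.0287). Of 6 tested genes for breakdown, 1 rose in control, also near the 15.8% of all genes, and 2 in deleted stroma, with Ctsk, a protease that cleaves triple-helical collagen, at 2.68 ± 0.36 (adjusted p = 0.0017) and 2.49.

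Basement membrane proteins other than type IV were called in both directions. Of 14 tested, 4 rose and 2 fell in control, and 2 rose and 3 fell in deleted stroma, with medians of 0.20 and -0.03. The 2 falls in control and the 2 rises in deleted stroma are at the shares of all genes (14.0% and 13.1%). Nid1, which links laminin to type IV collagen, rose by 2.10 ± 0.52 in control, Lamb1 rose by 0.99 ± 0.18 and Lamb2 fell (-0.93 ± 0.20). In none of the 5 lists did a gene pass for deletion of Atg7 in oil or in E2.

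Markers of cell types were read beside the collagen changes. Of 12 epithelial markers, 8 fell with estradiol in control and 6 in deleted stroma, and 0 rose. Of 10 smooth muscle markers 5 rose in control and 4 in deleted stroma, and of 12 fibroblast markers 6 rose in each. A fall was called for 1 smooth muscle marker in deleted and 1 fibroblast marker in control stroma. Of 10 endothelial markers 1 rose and 1 fell in each genotype. Of 10 macrophage markers 3 rose and 1 fell in control, and 1 rose and 1 fell in deleted stroma. Of all genes, 15.8% were called up and 14.0% down in control, and 13.1% and 11.2% in deleted stroma. Counts of 1 in 10 or 12 are near these shares. The 1 tested mesothelial marker fell in control. No marker of the 6 lists was at 0 in every library. Epithelial markers were at 18403 and 11470 CPM in control and deleted oil library 1 and at 6251 and 4911 in oil library 2, and Col1a2, Col3a1 and Col5a2 were lower in oil library 1 of each genotype. Endothelial markers summed to 1772 to 2754 CPM, macrophage markers to 154 to 323 and mesothelial markers to 86.5 to 212 over the 8 libraries. The part of cell make-up in the collagen changes was not tested. Without oil library 1 of both genotypes, the log2 fold changes with estradiol were 4.97 and 5.01 for Col1a1 in control and deleted stroma, 4.17 and 3.71 for Col1a2, 3.08 and 3.09 for Col6a3, 1.23 and 1.09 for Col4a1 and 1.26 and 1.27 for Col16a1, and 20 and 18 chains rose.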

How the data were processed

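RNA of 8 libraries was read with a 3′-end kit (QuantSeq), starting from 500 ng of total RNA extracted with Trizol, per the labels' protocols. Such a kit gives about 1 read per transcript whatever its length, and levels were left uncorrected for length. The authors deposited raw read counts per gene symbol for each library, with no normalization. Per the submitters' processing notes, Bowtie2, edgeR and mm10 were used, with no version or role stated. The sources used here name no counter, annotation or use of strand. For the 35 symbols listed more than once, the line with the most reads was kept, which left out at most 0.0973% of reads.

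Counts were scaled by TMM and tested with edgeR 4.0.16 (quasi-likelihood, R 4.3.3) in 1 model of 4 group means, after the default filter (minimum count 10, minimum total 15), with Benjamini-Hochberg adjustment over all 13347 genes at 0.05. Library factors were 0.918 to 1.03 and the common biological coefficient of variation was 21.8%. A floor of 3 reads equals 0.419 to 0.540 CPM, and floors cover counting error only. CPM values are reads per 1000000, with each library's total over the 13347 tested genes multiplied by its TMM factor. Coordinates are from GENCODE M21 on mm10. The alternatives were another scaling (DESeq2 size factors, library totals), no filter, summed duplicate lines, fits on the compared groups alone, a replicate block, DESeq2 1.42.0 and each library left out.

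Called chains, the 3 chains of smallest p per deletion comparison and the chain of highest mean level per class were named with fold changes. From each pathway list up to 3 genes of smallest adjusted p were named. The members and lists were chosen with earlier results of these data known.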

Additional observations from a re-analysis of the deposited data

How the results depend on the processing

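The count of chains that rose with estradiol in control stroma was 16 to 18 under the replicate block, other scalings, no filter, summed duplicates, the 2 compared groups alone and DESeq2, and 14 to 19 with 1 library left out. In deleted stroma it was 19 to 22 under the same settings and 12 to 23 with 1 library left out, with 12 without deleted E2 library 1, 13 without deleted E2 library 2 and 13 without deleted oil library 1. The count of falls was 0 to 3 in each genotype with 1 library left out. The fits without deleted E2 library 1, deleted E2 library 2 or deleted oil library 1 each left 1 library in a group. They tested 36, 36 and 35 chains, against 33 in the main fit. For estradiol in deleted stroma, a smaller share of all genes was also called in each of them. The lower counts of rises there were thus not particular to collagen chains. In deleted stroma 3 chains fell without the filter, where 1753 of all 18240 genes fell. In the fit on the 2 groups alone 2 chains fell in deleted stroma and 0 in control, and the counts over all genes are given below. Without oil library 1 of both genotypes, a choice made after seeing the data, 0 chains fell in control and 2 in deleted stroma. The cause was not tested. Deletion and the difference of responses had 0 chains called in every setting in which they were fitted. The block with crossed numbers, given below, was fitted for the estradiol comparisons only. The difference of responses has no fit on 2 groups alone. Deletion in E2 was not refitted without oil library 1 of both genotypes. Of 17 rises in control 14, and of 20 in deleted stroma 12, held in all 8 fits that left out 1 library, and none of the 3 falls did.

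Over all genes, the fit on the 2 control groups alone called 1232 up and 1073 down, against 2107 and 1871, and the fit on the 2 deleted groups alone called 2224 up and 2033 down, against 1746 and 1496. Samples with the same number deviated together between genotypes within a treatment (r over genes 0.494 in oil and 0.230 in E2). Between treatments r ran from -0.231 to -0.00907. The labels state no pairing, and what the numbers stand for is not given. With the replicate block 18 chains rose and 2 fell in control and 20 rose and 1 fell in deleted stroma, where Col11a1 was lost (adjusted p = 0.0549) and Col24a1 gained. With crossed numbers the counts were 18 and 2, and 21 and 1. With 2 libraries per group, chains of a few CPM could be tested only against large changes.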
